A study of Mus musculus with 8 samples.

Results

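Of the 2114 differential N6-methyladenosine (m6A) peaks in the authors' deposited list, 708 lay in a single uninterrupted block longer than 300 bases. They are called long single-block peaks here, and they were chosen by the block count and the block size alone. They made up 33.5% of the list and 66.2% of its 1069 single-block peaks, and they were listed under 673 gene names, of which 643 carried 1 such peak. In 3 pairs, peaks listed under different names overlap nearly completely (Hjurp and A730008H23Rik, Adnp and Dpm1-adnp, and Lrrc47 and Smim1 on opposite strands). With each pair counted once, a choice made after seeing the data, 705 peaks on 670 names remain, of which 65.4% have a positive change. Single-block peaks of 300 bases or less (361 peaks), peaks of 2 blocks (512) and peaks of 3 or more blocks (533) made up the rest. The block structure of a peak gives the pieces of genome it covers, so a peak of several blocks spans introns and a peak of 1 block does not.

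The adenosine modification m6A is written on nascent messenger RNA by a methyltransferase complex with METTL3 and METTL14 at its core. It is known to favour a short sequence context with GGAC as its most common core, the last exon around the stop codon, and unusually long internal exons, and it is depleted close to splice junctions. Readers of the YTH family and other proteins bind the mark and affect the splicing, translation and decay of the RNA.

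The cells were N2a, a mouse neuroblastoma line, given siRNA to Emg1 or siControl by lipid transfection and collected 48 h later. EMG1 is a methyltransferase of 18S ribosomal RNA that also acts in the assembly of the small ribosomal subunit, and the study asked about its influence on m6A in mRNA. Antibody-precipitated (IP) and input poly(A) RNA of each condition were sequenced, with 2 libraries in each of the 4 groups. Separate cultures are not named in the labels for the 2 libraries of a group. The DESeq2 p-values of input then measure only the spread between these libraries, which may be technical. Whether the false discovery rates of the peak changes measure that spread is unknown, because any pooling of replicates is not given. In the authors' deposited table the input level of Emg1 was 30.2% of control, a fall of 1.73 ± 0.11 on the log2 scale (SE; DESeq2 adjusted p = 3.37e-54), and Emg1 carried none of the differential peaks.

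Sequence could be read inside 18 of the long single-block peaks, 17 with a negative and 1 with a positive change, because they overlap a RefSeq window (build GRCm38.p6, which is mm10) of 250 bases before to 50 bases after a gene start. These 18 are 2.54% of the long single-block peaks. The letters GGAC were searched on the transcribed strand and, for comparison, on the other strand. Only the part of a peak inside a window was read, for example 50 of the 1810 bases of the Junb peak. In the parts read, the transcribed strand held GGAC in 5 of the 18 peaks and the other strand in 4. The rest of these peaks may hold further sites. The 7 sites on the transcribed strand are shown 5′ to 3′ to let the sequence under these peaks be seen, with GGAC in capitals.
Junb: ggccgagcactggGGACtttgagggtggcc
Golim4: GGACttcctcccggaatcccgttggccatg
Irs2, site at the higher coordinate: cctgaaacctaagGGACtgggccagagcaa
Irs2, site at the lower coordinate: gctgcggccactcGGACagcttcttcttca
Tspyl4, site nearer the start: ctgcgtctgcagaGGACaaggaaagctctg
Tspyl4, site farther from the start: tggatctgaagcaGGACcaggggctccaag
Plekhh3: ccgggccccggccaccGGACgccctaccgg

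The Junb site lies at chr8:84978700-84978729 on the minus strand, the Golim4 site at chr3:75956920-75956949 (minus), and the Plekhh3 site at chr11:101171253-101171282 (minus). The Irs2 sites lie at chr8:11007808-11007837 and chr8:11007671-11007700 (minus), and those of Tspyl4 at chr10:34297464-34297493 and chr10:34297587-34297616 (plus). The Irs2 and Tspyl4 sites were read from windows of other genes, annotated on the opposite strand, that overlap these peaks. The transcribed strand is always the one deposited for the peak, which is uncertain where genes overlap on opposite strands. In Junb, Golim4 and the higher Irs2 site a T follows GGAC. Of the 12 peaks that held the whole first 50 transcribed bases after an annotated start, 3 had GGAC in those bases on the transcribed strand (25%), where 18.9% of all 32851 RefSeq windows did. On the other strand 2 of 12 had it (16.7%), where 17.4% of all windows did. A match describes these letters and is no mapped modification site. The parts of these peaks outside the windows, and the remaining long single-block peaks, were not read.

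Length ran from 301 to 6717 bases, with a median of 570 and quartiles of 420 and 869. The longest peak covered 6717 bases of Mki67, which encodes the proliferation marker Ki-67 (chr7:135694279-135700995), or 25.2% of the gene's span from start to end with introns. Ankrd11, an ankyrin repeat regulator of transcription, followed with 5428 bases (chr8:122890707-122896134). Next came the zinc finger gene Zfp748 with 3657 bases, the imprinted noncoding RNA Peg13 with 3499, Dido1 with 3449 and the microtubule-associated protein gene Map1a with 3143. Lengths came in steps: 53.8% of the long single-block peaks were within 1 base of a multiple of 30. At the threshold itself, the 11 peaks of 301 bases had a median fold enrichment of 3.45 and 8 of them a positive change, and the 14 peaks of exactly 300 bases, just outside, had a median of 2.85 and 8 positive changes. Changes ran from -1.17 on Tspyl4 to 1.48 on Araf just inside, and from -2.14 on Shank2 to 1.70 on Cntrob just outside (log2), in the authors' deposited table.

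The authors' fold enrichment of IP over input, a value of each peak with no error, had a median of 8.84 in long single-block peaks (quartiles 4.61 and 16.2). In short single-block peaks it was 2.04, in peaks of 2 blocks 9.32 and in peaks of 3 or more blocks 4.51. Length was used to choose the peaks and may share reads with enrichment, so these medians are a description. Within the long single-block peaks the median was higher in each longer length class, from 4.28 at 301 to 400 bases to 24.6 above 2000 bases. Across the 708 peaks, which share their libraries, the Spearman correlation of length and enrichment was 0.647. The strongest enrichment, 75.9-fold, was on Zfp36l2, which encodes a protein that promotes decay of AU-rich mRNAs. Dido1 followed at 63.9-fold, the RNA helicase gene Dhx33 at 61.6-fold and the F-box gene Fbxo46 at 59.5-fold. The weakest were on Acsl3, an acyl-CoA synthetase gene, at 1.55-fold, the chromatin remodeler gene Chd4 at 1.6-fold, the small heat shock protein gene Hspb8 at 1.72-fold and Polr2a, the largest subunit of RNA polymerase II, at 1.74-fold. Only 8 long single-block peaks were enriched less than 2-fold.

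The change of a peak between conditions is a log2 value that the authors deposited without naming the numerator, so positive and negative are given as deposited and cannot be read as gain or loss after knockdown. Of the 708 long single-block peaks 461 had a positive and 247 a negative change, a positive share of 65.1% (95% exact interval 61.5 to 68.6, which covers counting of peaks and not spread between libraries). The positive share was 51.5% in short single-block peaks, 47.9% in peaks of 2 blocks and 18.6% in peaks of 3 or more blocks. Changes were mostly modest: the median size was 0.71 (log2) in long and 1.11 in short single-block peaks, and 144 long ones (20.3%) changed at least 2-fold, against 56.8% of the short ones. Longer peaks mostly had smaller changes, with a median size of 0.85 at 301 to 400 bases and 0.49 above 2000 bases, where none of the 29 peaks reached 2-fold. Every peak of the list was already called as changed by the authors, with a largest false discovery rate of 0.0282, so these sizes are those of called peaks only.

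**Figure D1:**
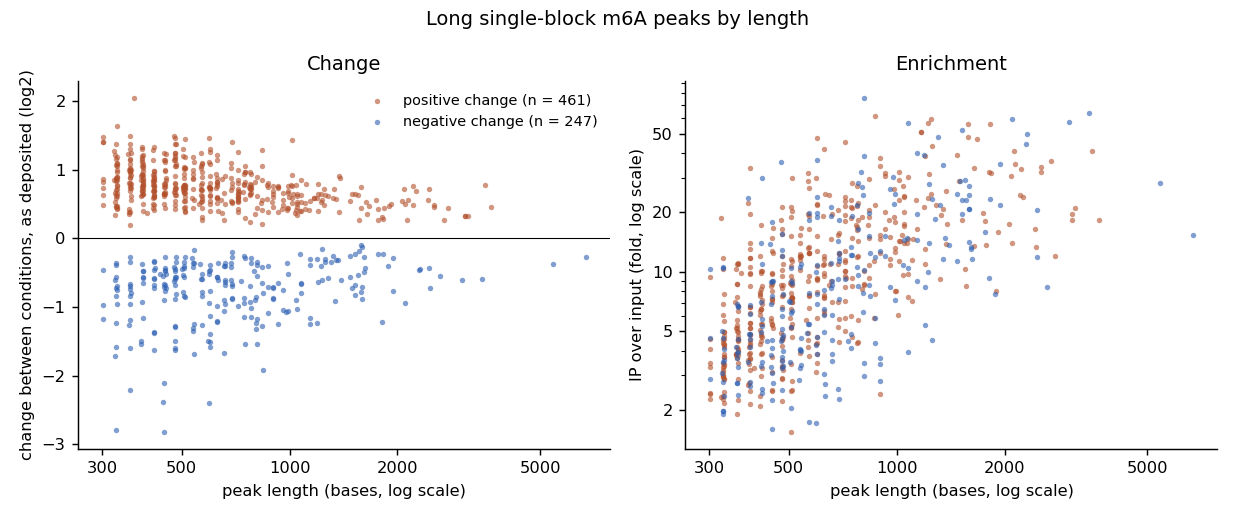
Each point is 1 long single-block peak, plotted by its length in bases (log axis) against its deposited log2 change (left) and its fold enrichment of IP over input (right, log axis), coloured by the sign of the change. Sizes of change narrow from a median of 0.85 at 301 to 400 bases to 0.49 above 2000 bases, while the median enrichment goes from 4.28 to 24.6.

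Leaving predicted genes aside, the most negative change, -2.82, was on Ptger1, a prostaglandin E receptor gene (chr8:83668018-83668464, 447 bases, enriched 3.81-fold), in the authors' deposited table. The transcription factor gene Cebpb had -2.79 (chr2:167689599-167689926, log10 false discovery rate -24.6) and Zfp503, a zinc finger repressor gene, -2.39 (log10 false discovery rate -2.25). Smek2, a regulatory subunit of protein phosphatase 4 whose current symbol is Ppp4r3b, had -2.21, the transporter gene Slc10a4 -2.11 and Plec, which encodes the cytoskeletal linker plectin, -1.92. These 6 peaks are placed along their genes without a common end: those of Smek2 and Slc10a4 were at the start and that of Plec at 84.4% of the span.

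On the positive side the extremes were smaller. The most positive change, 2.05, was on Rps19-ps3, a transcribed pseudogene named for the ribosomal protein gene Rps19 (chr4:147821777-147822145, 369 of its 426 bases), in the authors' deposited table. Reads of near-identical copies could have been assigned to it, so its value is uncertain. Rps19 itself carried no differential peak, and its input RNA was 38.5% of control (log2 fold change -1.38 ± 0.07, adjusted p = 1.04e-88, by the authors' deposited table). After it came Lmbr1l and the fatty acid transporter gene Slc27a1 at 1.5 each, leaving predicted genes aside. The kinase gene Araf had 1.48, and Arsa, which encodes the lysosomal enzyme arylsulfatase A, and Zzef1 had 1.46 each. Apart from Rps19-ps3, these lay in the last 10% of their gene spans.

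Position in the gene was not itself a criterion for the peaks, but it is not independent of the rule on block count and size. It was taken as the peak midpoint in percent of the RefSeq gene span from the 5′ end, introns included, for the 706 long single-block peaks that fell inside a span of that name (680 by current and 26 by older symbol). Of these, 403 (57.1%, 95% exact interval 53.3 to 60.8) lay in the last 10% of the span. The share was the same, 57.1%, for short single-block peaks, 21.9% for peaks of 2 blocks and 7.52% for peaks of 3 or more blocks. In spliced RNA an uninterrupted block fits only in an exon of at least its length, while peaks of several blocks span introns. Exon lengths were not analysed. How far the block rule alone sets these shares was not tested, so they are a description. The first 10% held 36 long single-block peaks (5.10%) and 67 short ones (18.6%). Whether a peak lay in coding or untranslated sequence was not analysed here. The median distance from the 3′ end of a long single-block peak to the end of the gene was 1282 bases, and 56 peaks ended exactly at the annotated gene end.

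The sign of the change differed along the span. In the last 10%, 282 of 403 long single-block peaks had a positive change (70.0%), from 50 to 90% it was 129 of 202 (63.9%), and from 10 to 50% it was 41 of 65 (63.1%). In the first 10% only 7 of 36 were positive (19.4%) and 29 were negative. Negative peaks there included those on Slc10a4 (-2.11), the MAP kinase kinase kinase gene Map3k10 (-1.6), the growth factor genes Tgfb1 (-1.39) and Vegfa (-0.87), the insulin receptor substrate gene Irs2 (-1.15), the neuronal cadherin gene Celsr3 (-0.80) and Hand2, a sympathoadrenal transcription factor gene (-0.89), in the authors' deposited table. The 7 positive peaks were on Galnt5 (1.43), the DNA repair gene Ogg1 (1.00), the semaphorin receptor gene Nrp1 (0.89), Macrod2 (0.89), Trappc12 (0.75), Cpeb4 (0.41) and Spata5 (0.32). All listed peaks, which include these, were 13.7% positive in the first and 64.4% in the last 10%. Short single-block peaks were 8.96% and 62.1% positive there, so the contrast between the ends is not particular to long single-block peaks. From 10 to 50% of the span, 25.5% of all listed peaks were positive, beside the 63.1% of long single-block peaks. Short single-block peaks were 30.0% positive there, from 6 of 20 peaks (95% exact interval 11.9 to 54.3). Gene spans differed too in this part, with a median of 8537 bases for long and 32046 for short single-block peaks. From 50 to 90%, short single-block peaks were 67.6% positive and all listed peaks 53.3%, beside the 63.9% of long single-block peaks.

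**Figure D2:**
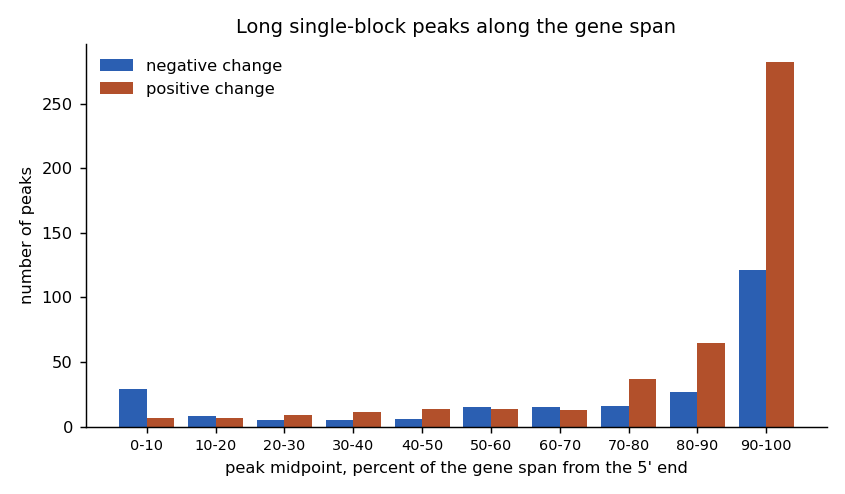
Number of long single-block peaks whose midpoint fell in each 10% of the RefSeq gene span, from the 5′ end, with negative and positive changes as separate bars. The last 10% holds 282 positive and 121 negative peaks, and the first 10% holds 7 positive and 29 negative ones.

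At the very start of genes nearly all changes were negative. The 5′ end of 17 long single-block peaks lay within 50 bases of the annotated gene start or before it, and 16 of them had a negative change, with a median over all 17 of -0.85. They included the immediate early genes Junb (-1.21) and Ier5 (-0.51), Hand2 (-0.89), the proteasome subunit gene Psmd3 (-1.59), Hspb8 (-0.52) and the nuclear noncoding RNA Malat1 (-0.43). The exception was Ogg1 at 1.00. The peaks of Junb, Sf3b5 and Rprml, all among the 17, also ran to within 50 bases of the gene end. Among short single-block peaks 36 began within the same distance, 35 of them negative. At the other end, 59 of the 84 peaks that ended within 50 bases of the gene end were positive.

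A few peaks covered most of a compact gene. At least 50% of the span lay inside the peak for 10 genes, 7 of them with a negative change. The peak of Junb took in 1810 of the 1840 bases of its gene, that of the splicing factor gene Sf3b5 all 734, and that of Rprml 1042 of 1072, with changes of -1.21, -0.63 and -0.89. Rrs1, a ribosome assembly factor gene, had a change of -0.34, the centromere protein gene Cenpb -0.27, the exosome subunit gene Exosc6 -0.48 and the linker histone gene H1f0 -0.31. The positive ones were Zbed6 (0.32), Peg13 (0.78) and Rps19-ps3. By RefSeq type 696 of the placed peaks were on protein-coding genes, 8 on long noncoding RNAs and 2 on transcribed pseudogenes.

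Genes with peaks of both signs allow the positions to be compared within 1 gene. A long single-block peak and at least 1 further listed peak of the other sign were found on 21 genes, and in 19 of them the negative peak lay 5′ of the positive one. In Tspyl4, a gene of the TSPY-like nucleosome assembly family, 3 long single-block peaks at 3.85%, 21.5% and 44.2% of the span had changes of -1.17, -0.40 and 0.55. Sp1, a general transcription factor gene, had -0.39 at 9.31% and 0.40 at 82.2%. In Cdr2l the peaks at 85.4% and 97.2% had -0.91 and 0.51, and in Mapk1ip1l those at 49.8% and 95.6% had -0.46 and 0.74. The glutathione-degrading enzyme gene Chac1 had -3.44 in a short peak at 1.91% and 0.37 in a long one at 80.3%, in the authors' deposited table. The exceptions were Polr2a, with 0.99 at 0.546% and -0.79 at 96.5%, and Zfp617, with 0.77 at 88.1% and -2.52 at 92.6%. Among the genes of the list without a long single-block peak that carried both signs, the negative peak was the 5′ one in 14 and the 3′ one in 2. In 4 of the 21 genes all the peaks compared were long single-block peaks. The same peaks enter the shares along the span given above, so this order is no separate support for them. Peaks of 1 gene share its RNA and are not independent.

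**Figure D3:**
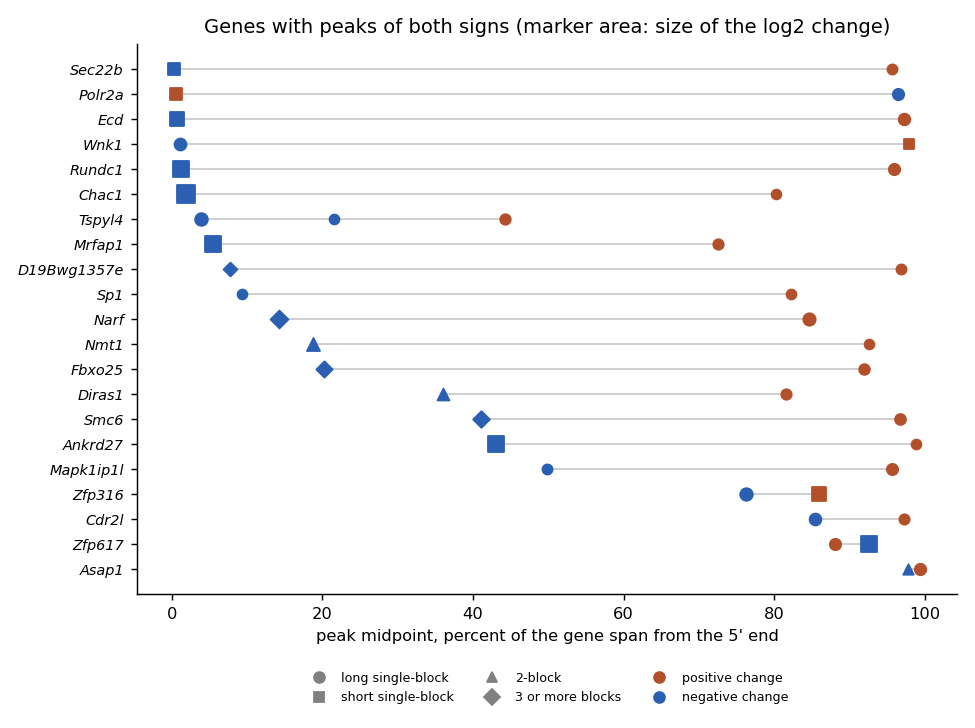
Each row is a gene with a long single-block peak and a listed peak of the other sign, and each marker is 1 peak at its midpoint in percent of the gene span, with colour for the sign, shape for the block class and area for the size of the log2 change. In 19 of 21 rows the negative peak is on the left, and Polr2a and Zfp617 are the exceptions.

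Several long single-block peaks were carried by 30 genes, and in 26 of them all had 1 sign (16 positive, 10 negative). Ahnak, which encodes a giant scaffold protein, had 5 such peaks, the most of any gene, between 18.8% and 29.7% of its span. Their changes were 0.33, 0.48, 0.45, 0.56 and 0.77 from the 5′ side, so the shortest of them, of 450 bases, changed most. Its input RNA was at -0.01 ± 0.06 (log2 fold change, SE; adjusted p = 0.937), by the authors' deposited table. Ankrd11 had 3, at -0.37 for the longest and -0.80 and -0.42 for the shorter ones. The microtubule-associated protein gene Map1b had -0.42 and -0.40, the histone methyltransferase gene Kmt2d -0.56 and -1.08, and Irf2bpl -1.22 and -0.82. Tmem127 had 0.78 and 0.50, and Thnsl1 0.79 and 0.54.

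The change of input RNA was not part of the rule on block count and size. The input libraries do enter the fold enrichment of IP over input of each listed peak. Input RNA is therefore not independent of the peak list. A gene counted as called where its adjusted p from the DESeq2 fit in the deposited table was under 0.05, and the fold change was read as knockdown over control from the sign of Emg1. Of all 12807 genes that have such a p-value, 17.1% rose and 15.5% fell (32.6% called). Of the 230 genes with only negative-change long single-block peaks, 112 rose (48.7%) and 20 fell (8.70%). Of the 437 with only positive-change ones, 72 rose (16.5%) and 117 fell (26.8%). The median log2 fold changes were 0.22 and -0.08, beside -0.00 over all genes. The negative-change genes were also more abundant, with a median mean count of 2892 against 1417, and calls are more frequent among abundant genes: at a mean of at least 1000, 26.1% of all genes rose and 19.3% fell (45.4% called), the negative-change genes rose in 53.5% and fell in 8.11% of cases, and the positive-change genes rose in 21.8% and fell in 25.2% of cases. With a change of at least 1.5-fold required too, 2.26% of all genes rose and 4.41% fell, against 11.7% and 1.74% of the negative-change genes and 0.229% and 8.01% of the positive-change ones. Not given in the sources used here is whether the input libraries entered the deposited peak change. The peak and input values may therefore share reads, and they are set side by side without a test.

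**Figure D4:**
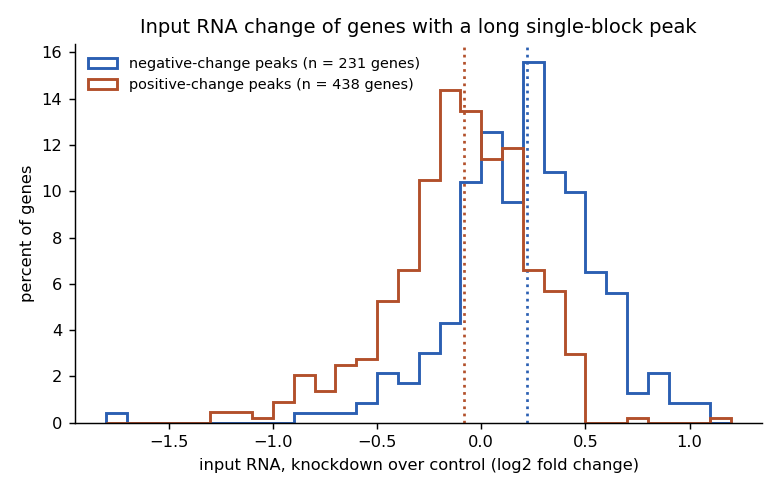
Distribution of the input log2 fold change (knockdown over control, bins of 0.1) of genes whose long single-block peaks all had a negative or all a positive change, in percent of the genes of each kind, with dotted lines at the medians. The medians lie at 0.22 and -0.08.

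The shares that rose were also looked at by position. Among genes with negative-change long single-block peaks, 17 of 29 rose where the peak was in the first 10% of the span (58.6%), 7 of 23 from 10 to 50% (30.4%), 35 of 70 from 50 to 90% (50%) and 57 of 116 in the last 10% (49.1%), beside 17.1% of all genes. Among short single-block peaks the negative-change genes rose in 32.3% of cases, and for peaks of 2 and of 3 or more blocks in 41.0% each. Positive-change genes fell in 23.5% of cases for short single-block peaks, in 23.5% for 2 blocks and in 19.2% for 3 or more. The differences between these classes were not tested.

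Leaving genes with a mean under 100 aside, the largest input rises among genes with a long single-block peak were those of Zfp503 at 1.06 ± 0.28 (adjusted p = 0.000808), Junb at 1.01 ± 0.26 (adjusted p = 0.000521) and the T-box factor gene Tbx2 at 0.97 ± 0.13 (adjusted p = 3.62e-12), by the authors' deposited table. Map1s, a microtubule-associated protein gene, rose by 0.88 ± 0.12 and the FERM domain gene Frmd4a by 0.87 ± 0.06. The peaks of these 5 genes all had negative changes, between -2.39 and -0.16. The largest falls were those of the matricellular protein gene Sparcl1 at -1.71 ± 0.24, Rps19-ps3 at -1.25 ± 0.17 (uncertain, as above, for near-identical copies), Narf at -1.21 ± 0.12, Tmem64 at -1.19 ± 0.11 and Uap1, which makes UDP-N-acetylglucosamine, at -1.10 ± 0.10. In this group the peak of Sparcl1 was negative (-1.54) and the others were positive, between 1.07 and 2.05.

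Chromatin remodelers and histone-modifying enzymes were, of the gene lists examined, the one with the highest share of genes carrying a long single-block peak. A listed peak of any kind was on 32 of its 76 measured genes, beside 1912 of all 16279 measured genes. These 2 sets differ in abundance: 75 of the 76 genes had a mean count of at least 100, but only 11134 of the 16279. Of its 75 genes with a mean count of at least 100, 18 carried a long single-block peak (24%), where 5.98% of all 11134 such genes did. They included the acetyltransferase genes Kat6a (3023 bases, enriched 57.5-fold, change -0.60), Ep300 (2308 bases, -0.44), Crebbp (1945 bases, 21.9-fold, -0.76) and Kat6b (1079 bases, 56.6-fold, -0.79), in the authors' deposited table. Of the 20 peaks 12 were negative and 8 positive. The positive ones were on Kdm4b, Ino80, Kmt2a, Chd8, Whsc1 (now Nsd2), Kmt2c and Ncor1, between 0.55 and 1.33. In input 15 of the 18 genes rose and 1 fell, where 19.4% of all genes with a mean of at least 100 rose and 17.1% fell (36.5% called). Calls are more frequent among abundant genes, and at a mean of at least 1000, 26.1% of all genes rose and 19.3% fell. The one that fell was Kdm4b, a histone demethylase gene, at -0.30 ± 0.11 (adjusted p = 0.0279), and Nsd1 at -0.05 ± 0.17 and Ino80 at 0.14 ± 0.09 did not pass, in the authors' deposited table. Kmt2d rose most of the 18, by 0.78 ± 0.06, followed by Dot1l at 0.63 ± 0.07, both with negative peaks. Chd8 (0.43 ± 0.08) and Kmt2a (0.27 ± 0.06) rose with positive peaks.

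**Figure D5:**
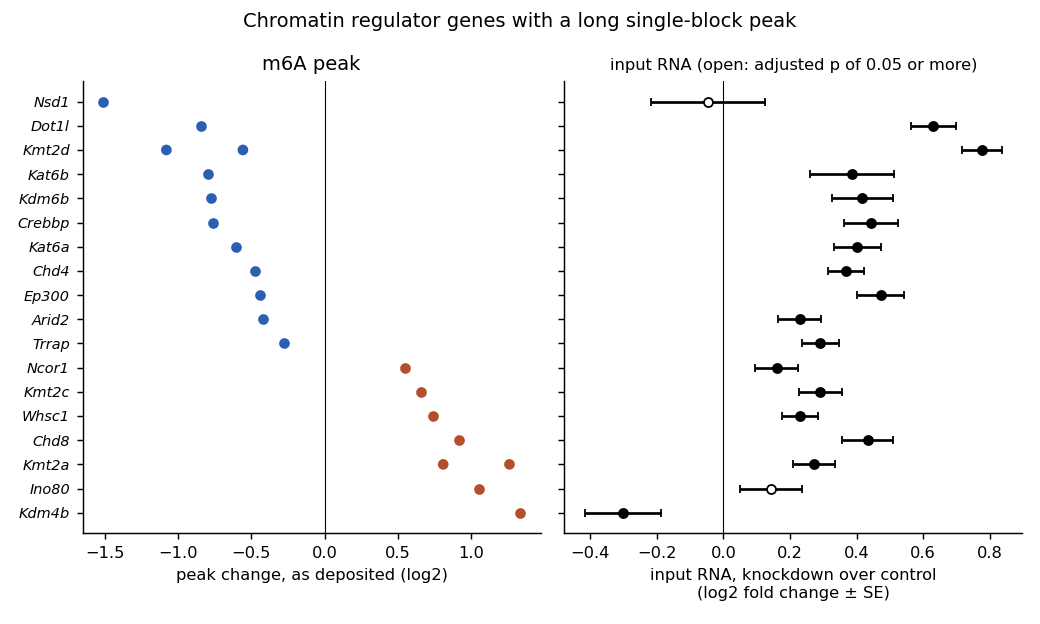
The 18 chromatin regulator genes with a long single-block peak, with the deposited log2 change of each such peak on the left and the input log2 fold change ± SE on the right, where open circles have an adjusted p of 0.05 or more. Input values lie above 0 for 16 genes, and Kdm4b and Nsd1 lie below.

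Genes named Zfp, most of which encode zinc finger proteins with their fingers in 1 long last exon, had 22 members with a long single-block peak among 309 with a mean of at least 100 (7.12%, beside 5.98% of all genes). Their peaks were long and strongly enriched, with a median of 1271.5 bases and 24.1-fold, beside 570 bases and 8.84-fold for all long single-block peaks. Of the 22 peaks 16 were positive and 6 negative. Zfp748 (3657 bases, 0.46), Zfp12 (2688 bases, 0.28) and Zfp280b (2214 bases, 0.49) had the longest, in the authors' deposited table. The negative ones included Zfp503, Zfp36l2 (-0.39) and Zfp316 (-1.13). In input 6 of the 22 rose, 3 fell and 13 did not pass, where 19.4% of all genes with a mean of at least 100 rose and 17.1% fell.

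Immediate early genes respond to growth signals without new protein synthesis. Of 24 with a mean of at least 100, 5 carried a long single-block peak (20.8%, beside 5.98% of all such genes). All 5 peaks were negative, where 34.9% of all long single-block peaks were. Jund had -1.54 over 750 bases, Junb -1.21 over 1810, Ier5 -0.51 over 451, Zfp36l2 -0.39 over 809 and Egr1 -0.22 over 1521, in the authors' deposited table. Of these, Junb, Zfp36l2 (0.62 ± 0.10) and Egr1 (0.28 ± 0.07) rose in input, and Jund at 0.55 ± 0.25 (adjusted p = 0.0735) and Ier5 at 0.10 ± 0.10 did not pass. Of all genes with a mean of at least 100, 19.4% rose and 17.1% fell. Genes with only negative-change long single-block peaks rose in 48.7% of cases, so 3 of 5 cannot be told from that share.

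In the integrated stress response list 5 of 23 genes had a long single-block peak (21.7%, beside 5.98% of all genes with a mean of at least 100): Cebpb at -2.79, the amino acid transporter subunit gene Slc3a2 at -0.75, Ddit3, which encodes the transcription factor CHOP, at -0.52, Chac1 at 0.37 and the pseudokinase gene Trib3 at 0.40. In input Chac1 (-0.82 ± 0.10), Trib3 (-0.64 ± 0.08) and Ddit3 (-0.26 ± 0.07) fell, in the authors' deposited table. Cebpb at 0.23 ± 0.44 and Slc3a2 at -0.10 ± 0.05 did not pass. Of all genes with a mean of at least 100, 19.4% rose and 17.1% fell. Of the cholesterol synthesis genes, the lanosterol synthase gene Lss had a peak change of 0.83 and fell in input by 0.68 ± 0.08, and Hsd17b7 had 0.98 and fell by 0.42 ± 0.11, in the authors' deposited table. In the list of mTOR regulators 4 of 23 (17.4%) had a long single-block peak: the kinase gene Ulk1 at 0.99 and Tsc1 at 1.25 with input values that did not pass, Irs2 at -1.15 with an input rise of 0.48 ± 0.07, and Rraga at 0.39 with an input fall of 0.47 ± 0.11, in the authors' deposited table.

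Of the m6A machinery, 0 of 9 writer genes, 0 of 9 AlkB family genes, which include the demethylases, and 1 of 12 reader genes with a mean of at least 100 carried a long single-block peak. Where 5.98% of all such genes carry one, lists this short cannot be told from the background. The reader gene was Prrc2a. Its peak covered 869 bases at 53.5% of the span with a change of -0.41, and its input RNA rose by 0.65 ± 0.05 (adjusted p = 3.59e-33), by the authors' deposited table. The list of Emg1 and the Nop14 complex had 0 of 8, too short a list to set against 5.98%. Beside those 5.98%, the other lists had 3 of 31 mitosis genes (Mki67 at -0.28, Birc5 at 0.27 and the kinetochore gene Nuf2 at 0.77), 2 of 39 ubiquitin-specific protease genes (Usp36 at 1.05 and Usp37 at 0.79), 2 of 32 ribosome assembly genes (Nol6 at 0.68 and Rrs1), 2 of 24 glycolysis and hypoxia genes (Hk1 at -0.59 and Vegfa), 1 of 17 p53 targets (Tigar at 1.40), 1 of 16 progenitor factors (Hand2), 1 of 20 protocadherins (Pcdhgc3 at -0.85) and 0 of 24 Wnt genes. Of 96 genes matched by the pattern for ribosomal protein symbols, 3 had a long single-block peak (3.12%): Rps19-ps3 and the kinase genes Rps6ka4 and Rps6kc1. Apart from the pseudogene, no cytosolic ribosomal protein gene matched by that pattern had one. Outside the pattern, the mitochondrial ribosomal protein genes Mrpl19 (0.42), Mrpl45 (0.48) and Mrpl46 (0.85) each had one, named after their values were seen.

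Neither deposited table holds values per library, so library depth is unknown and no peak change has an error of its own. The cells carried sympathoadrenal transcripts, with mean normalized counts of 10440 for Hand2 and 3005 for Phox2a, while Th and Dbh, enzymes of catecholamine synthesis, were low at 107.3 and 42.6. Markers of fibroblasts, leukocytes, glia, epithelium and endothelium lay between 8.96 and 1357 where they were measured, and none of the 12 measured carried a differential peak. Of these Pdgfrb fell by 0.98 ± 0.19 and Cd74 by 0.74 ± 0.12 in the authors' deposited table, and their part in the peak changes was not tested.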

How the data were processed

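N2a cells with Emg1 knockdown or control, as IP and input, gave 8 libraries in 4 groups of 2. The submitters' processing notes name mm10 as the build and HISAT2, Trimmomatic and DESeq2 as tools. Not given in the sources used here are the peak caller, the annotation, tool versions and any pooling of replicates. The peak list gives, per the file headers, a fold enrichment of IP over input (a ratio), a log2 change between conditions, log10 values of its p-value and false discovery rate (used as a score), and other columns with the number and size of blocks. The input table, deposited by the authors, gives a signal (the mean normalized count), a log2 fold change with SE, a Wald score, a p-value and an adjusted p-value for 16279 genes, with an adjusted p for 12807. Both tables hold comparisons, so no count model was refitted, depth is unknown and the SE (median 0.104 at means of at least 100) sets the precision.

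Members were the rows with 1 block of more than 300 bases. Starts are printed 1-based. Members, the 24 gene lists and the tests were chosen with earlier results of these data known. Named members were the 6 longest, the 6 highest and 6 lowest changes, the 4 highest and 4 lowest enrichments, neighbours of the threshold, up to 8 genes with several members, genes with members of both signs, m6A machinery, the 3 longest per list, and the 5 highest and 5 lowest input changes, without predicted genes or chromosome 18. One gene of the cholesterol list, and the count of that list, are not reported here. Other genes were named after their values were seen: the remaining list members, those at gene starts or covering a gene, further both-sign genes, and the marker genes. RefSeq tables of GRCm38.p6 gave gene spans, older symbols and the windows for sequence. Shares have 95% exact Clopper-Pearson intervals, which cover counting only. The placing and interval functions were tested on simulated data. Alternatives were other lengths, thresholds, minimum means, position measures and symbol matching. Computations ran in Python 3.11.15 with pandas 2.3.3, scipy 1.17.1, matplotlib 3.10.9 and numpy 2.4.6.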

Additional observations from a re-analysis of the deposited data

How the results depend on the processing

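The positive share of 65.1% stayed between 62.2% and 65.6% under the alternatives tried, except for peaks above 600 bases, where it was 60.4%. The median enrichment of 8.84 moved with the length threshold, to 7.70 above 250 bases, 10.8 above 400, 12.4 above 500 and 14.8 above 600. With an adjusted p under 0.01, 40.4% of negative-change genes rose, and 10.3% of positive-change genes rose and 20.6% fell, where 12.3% of all genes rose and 11.0% fell. With a change of at least 1.5-fold as well as an adjusted p under 0.05, 11.7% of negative-change genes rose and 1.74% fell, and 0.229% of positive-change genes rose and 8.01% fell, where 2.26% and 4.41% of all genes did. At a mean of at least 1000, a choice made after seeing the data, 21.8% of positive-change genes rose. The share in the last 10% of the span was 51.2% for peaks above 600 bases, 63.5% by the 3′ end of the peak and 65.5% on spans of at least 10000 bases (the last also chosen after seeing the data), and 38.8% and 70.1% lay in the last 5% and 20%. The share positive in the first 10% stayed between 18.5% and 27.5%, and in the last 10% between 65.2% and 70.8%. Of 52 named genes called in input, 12 lost the call at an adjusted p under 0.01 and 30 at 1.5-fold.

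No paired analysis was possible because the tables hold no values per library, and for the same reason libraries could not be left out and counts could not be renormalized. The motif alternatives over whole peaks were not run, since no genome sequence was used. Depth per library is unknown, so limits of detection cannot be given.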

Other observations

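Among the long noncoding RNAs and pseudogenes with a long single-block peak, Malat1 had a peak of 1619 bases that began 1 base from its annotated start, enriched 11.6-fold, with a change of -0.43 and a log10 false discovery rate of -95.6, in the authors' deposited table. Its input RNA was at 0.01 ± 0.05 (log2 fold change, SE; adjusted p = 0.931). Peg13, transcribed from an imprinted region, had the opposite sign, 0.78 over 3499 bases, and fell in input by 0.32 ± 0.10 (adjusted p = 0.00501).

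The long single-block peak of Nrp1 (360 bases, change 0.89) overlaps the RefSeq annotation of the microRNA mmu-miR-1903 on the same strand, at chr8:128359251-128359272, which begins 1 base before the peak.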
